A study of Mus musculus with 12 samples.

Results

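The miR-125 and miR-99/100 families are small groups of microRNAs (miRNAs) that are best known in blood from hemopoietic stem cells. They were followed here through mouse granulopoiesis, the maturation of neutrophilic granulocytes. The members are the guide strands, without a trailing star, whose assay name begins with miR-125a, miR-125b, miR-99a or miR-99b, or equals miR-100. Of 593 numbered assays, 270 could be named, and 3 of the 270 met this rule: miR-125a-5p, miR-125b-5p and miR-99b. No assay could be named miR-99a or miR-100, and these are not analysed here. The rule uses names alone and no measured value.

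Measurement was by TLDA RT-qPCR, in which a TaqMan low-density array card reads each miRNA in a well of its own. The result is the CT, the cycle at which the product crosses a threshold, so that a lower CT means more template and 1 cycle means a 2-fold difference at full amplification efficiency. Cells of 4 stages were sorted from the bone marrow of C57BL/6 mice: LSK cells, a lineage-negative population positive for Sca1 and cKit that holds the stem cells, then promyelocytes, myelocytes and granulocytes. From each stage whole cell, cytoplasmic and nuclear RNA was read, 12 samples in all, each from 100 ng of RNA by the labels. The labels name no treatment or genetic change, and they do not say how many mice were pooled. With 1 sample per stage and RNA kind, read in 1 well per assay, no difference below has a replicate check, no error can be put on a CT, and no test was made.

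A miRNA guides Argonaute proteins to messenger RNAs mainly through its seed, the bases near its 5′ end, and miRNAs with the same seed form a family because they can pair with the same target sites. In mammals the miR-99/100, let-7 and miR-125 families lie together in clusters of the same order, copied during evolution, and a shared transcript can give rise to a member of each. miR-125a and miR-125b are enriched in stem cells of the bone marrow, where they lower the messages of pro-apoptotic proteins, and raising miR-125b in mice can cause leukemia. miR-99 and miR-100 are known for repressing parts of the mTOR growth pathway, and let-7 is a family of miRNAs that rises as many tissues mature.

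The mature sequences of all 3 members were found in the RefSeq miRNA table of build GRCm38.p6, under the present names miR-125a-5p, miR-125b-5p and miR-99b-5p. They are shown with let-7e-5p, the cluster neighbour of miR-99b and miR-125a, and with miR-351-5p, which has the miR-125 seed, because the results turn on which of them share a seed and which share a cluster. Capitals mark the seed, bases 2 to 8 from the 5′ end.
miR-125a-5p: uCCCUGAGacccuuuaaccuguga
miR-125b-5p: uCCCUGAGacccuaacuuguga
miR-351-5p: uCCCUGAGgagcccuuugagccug
miR-99b-5p: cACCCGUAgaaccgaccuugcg
let-7e-5p: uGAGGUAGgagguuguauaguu

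miR-125a-5p, of 24 bases, and miR-125b-5p, of 22, are identical over their first 13 bases and differ in the middle of the strand. Of 1679 mature names 5 carry this seed, and 3 of those are named assays here: both miR-125 members and miR-351, which shares only the first 8 bases with miR-125a-5p. The miR-99b seed is carried by miR-99a-5p, miR-99b-5p and miR-100-5p alone in the table, and miR-99b-5p differs from either of the others at 4 of 22 positions. Assays of such close sequences can cross-react, and their specificity was not tested.

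The genes fall into 3 clusters in the reference, each with a miR-99/100, a let-7 and a miR-125 gene as neighbours in that order. Mir99b, Mirlet7e and Mir125a lie within the protein-coding gene Spaca6, with 94 bases between the first pair of hairpins and 367 between the second. Mature miR-99b-5p is at chr17:17830194-17830215, let-7e-5p at chr17:17830366-17830387 and miR-125a-5p at chr17:17830817-17830840, all on the plus strand. miR-125b-5p comes from 2 genes that give the same strand, so its assay cannot separate them: Mir125b-1 at chr9:41581940-41581961, inside the long noncoding RNA gene Mir100hg with Mir100 and Mirlet7a-2, and Mir125b-2 at chr16:77646279-77646300, after Mir99a and Mirlet7c-1. In these wider clusters 45114 and 46522 bases lie between the let-7 and the miR-125b hairpin.

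In each RNA kind, the lowest CT of each member was that of LSK cells. In whole cell RNA miR-125a-5p was read at a CT of 28.76 in LSK cells, 34.79 in promyelocytes, 35.41 in myelocytes and 34.12 in granulocytes. In cytoplasmic RNA its CT was 27.23 in LSK cells, 34.94 in promyelocytes, 33.97 in myelocytes and 35.23 in granulocytes. LSK cells stood apart by more than 5 cycles in both, and the later stages lay within 1.29 cycles of each other in whole cell and 1.26 in cytoplasmic RNA, with no shared order. In nuclear RNA miR-125a-5p had a CT of 32.12 in LSK cells and 35.41 in myelocytes, and the wells of promyelocytes and granulocytes were undetermined, which the table lists at 40.

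miR-125b-5p was the member that stayed most readable after the LSK stage. Its whole cell CT was 28.87 in LSK cells, 30.91 in promyelocytes, 31.08 in myelocytes and 32.05 in granulocytes. Its cytoplasmic CT was 26.96, 30.40, 31.32 and 33.01 in the same order. A further decline of miR-125a-5p could hardly be read at its late CTs. The CT of miR-125b-5p rose at every step of maturation in both kinds of RNA. Its whole cell CTs of 30.91 in promyelocytes and 31.08 in myelocytes lie too close for single wells to show a decline at that step. Its nuclear CT was 30.95 in LSK cells, 34.99 in promyelocytes, 33.17 in myelocytes and 33.57 in granulocytes, where the later stages did not follow that order.

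miR-99b was read at a whole cell CT of 31.47 in LSK cells, 36.49 in promyelocytes, 36.77 in myelocytes and 35.32 in granulocytes. Its cytoplasmic CT was 29.99 in LSK cells, 36.81 in promyelocytes and 37.16 in granulocytes, and undetermined in myelocytes. Its nuclear well gave a CT of 34.04 in LSK cells and was undetermined at the 3 later stages. The profile thus had the shape of that of miR-125a-5p, a drop after the LSK stage, at later CTs throughout. A further decline of either could hardly be read at the CTs of the later stages. Levels of different members are not ranked here, since the efficiency of each assay is unknown.

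**Figure D1:**
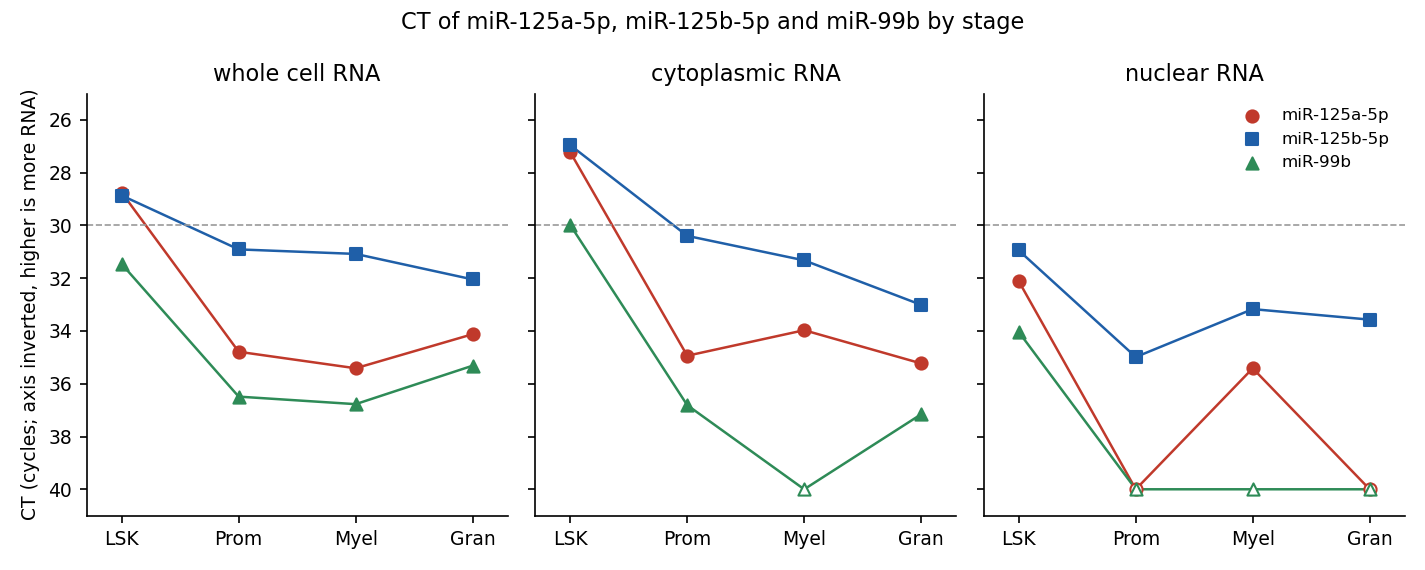
CT in cycles, on an inverted axis so that higher is more RNA, of miR-125a-5p (circles), miR-125b-5p (squares) and miR-99b (triangles) in LSK cells, promyelocytes (Prom), myelocytes (Myel) and granulocytes (Gran), 1 sample per point; open symbols are undetermined wells at 40 and the dashed line is a CT of 30. Each member is highest in LSK cells in all 3 panels, and miR-125b-5p stays at a CT of 30.91 to 32.05 in whole cell RNA of the later stages where the other members lie between 34.12 and 36.77.

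A CT under 30 was the study's limit for reliable reading. In whole cell and in cytoplasmic RNA miR-125a-5p and miR-125b-5p were under it in LSK cells alone. miR-99b was under it in 1 sample, cytoplasmic RNA of LSK cells, where 29.99 is just inside the limit, and no member was under it in nuclear RNA. A miRNA that passes this limit only through LSK cells, as the members did, has to be lower later, so that the counts against other assays below describe the size of the falls and do not support them. The depth of each fall rests on later-stage CTs of 30.40 to 37.16, where single wells are imprecise.

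Among the 12 samples 259 to 288 of the 593 assays were under a CT of 40 in whole cell, 263 to 294 in cytoplasmic and 199 to 229 in nuclear RNA. The labels were checked against other miRNAs. miR-223, the granulocyte marker, had a whole cell CT of 23.98 in LSK cells and 16.43 in granulocytes, and miR-126-3p, miR-130a and miR-196b, taken as LSK markers with earlier results known, changed from LSK cells to granulocytes by -3.36, -3.95 and -8.06 on the log2 scale. Of the wider stem and progenitor list, miR-10b, miR-29a and miR-221 changed in the other direction in whole cell RNA, by 2.24, 0.86 and 0.72, and in cytoplasmic RNA by -0.49, -0.44 and -0.59. The RNA kinds did not scale alike: over 66 named assays under 30 in all whole cell and cytoplasmic samples, the whole cell minus the cytoplasmic CT had a median of 1.45 cycles in LSK cells, against -0.61 in promyelocytes, -0.06 in myelocytes and -0.51 in granulocytes. Changes from LSK cells were therefore a median of 1.88 cycles more negative in cytoplasmic than in whole cell RNA for these assays, both unscaled, to promyelocytes and to granulocytes alike. Which of the LSK samples causes this was not tested, and the changes of the members are given for both kinds of RNA.

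To compare stages, log2 changes were taken as CT differences, positive where the later stage was higher. Whole cell changes were scaled by the average of the final 3 assays in the table, which shifts a change from LSK cells by 0.25 cycles for promyelocytes and 0.68 for granulocytes. Cytoplasmic changes were not scaled. From LSK cells to promyelocytes, miR-125a-5p fell by 6.28 on the log2 scale in whole cell RNA, or 77.7-fold, the third largest fall of the 129 named assays under 30 in at least 1 stage. miR-125b-5p fell by 2.29, or 4.89-fold, rank 10 from the largest fall. Both were past 2-fold, as were 25 of the 129 assays in this direction, 19.4%, while the median of the 129 was a rise of 0.42. miR-99b, not under 30 in whole cell RNA and so outside that count, fell by 5.27. With CTs above 35 set to 35 it fell by 3.78.

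In cytoplasmic RNA the changes over the same step were -7.71 for miR-125a-5p, -3.44 for miR-125b-5p and -6.82 for miR-99b. All 3 were past 2-fold, but so were 78 of the 128 assays counted in this RNA, 60.9%, and the median of the 128 fell by 1.25. Scaled to the mean CT of the named assays these changes were -6.54, -2.27 and -5.65. With CTs above 35 set to 35, cytoplasmic miR-99b fell by 5.01. With both left unscaled, the whole cell change minus the cytoplasmic one was 1.68, 1.40 and 1.80 for miR-125a-5p, miR-125b-5p and miR-99b, within the range of 0.88 to 3.01 that held the central 95% of the 66 well-read assays. Over the step from LSK cells to granulocytes the same differences were 2.64, 2.87 and 3.32 against a range of 0.74 to 2.95, so that miR-99b lay outside it.

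From LSK cells to granulocytes, miR-125a-5p fell by 6.04 in whole cell RNA, 65.9-fold and the third largest fall. miR-125b-5p fell by 3.86, 14.5-fold and rank 8, and miR-99b fell by 4.53. The size depended on the scaling: the changes of miR-125a-5p, miR-125b-5p and miR-99b were -5.37, -3.18 and -3.85 unscaled, and -6.88, -4.69 and -5.36 when scaled to the mean CT of the named assays. Of the 129 assays 22 were at least 2-fold lower, 17.1%, and 70 at least 2-fold higher, 54.3%, with a median rise of 1.30. In cytoplasmic RNA miR-125a-5p was 256-fold lower, miR-125b-5p 66.3-fold and miR-99b 144-fold, at ranks 4, 10 and 6 of 128. The value of miR-99b rests on a granulocyte CT of 37.16, and with CTs above 35 set to 35 it fell by 5.01, or 32.3-fold. In this RNA 44 assays were at least 2-fold lower, 34.4%, and 43 at least 2-fold higher, 33.6%.

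**Figure D2:**
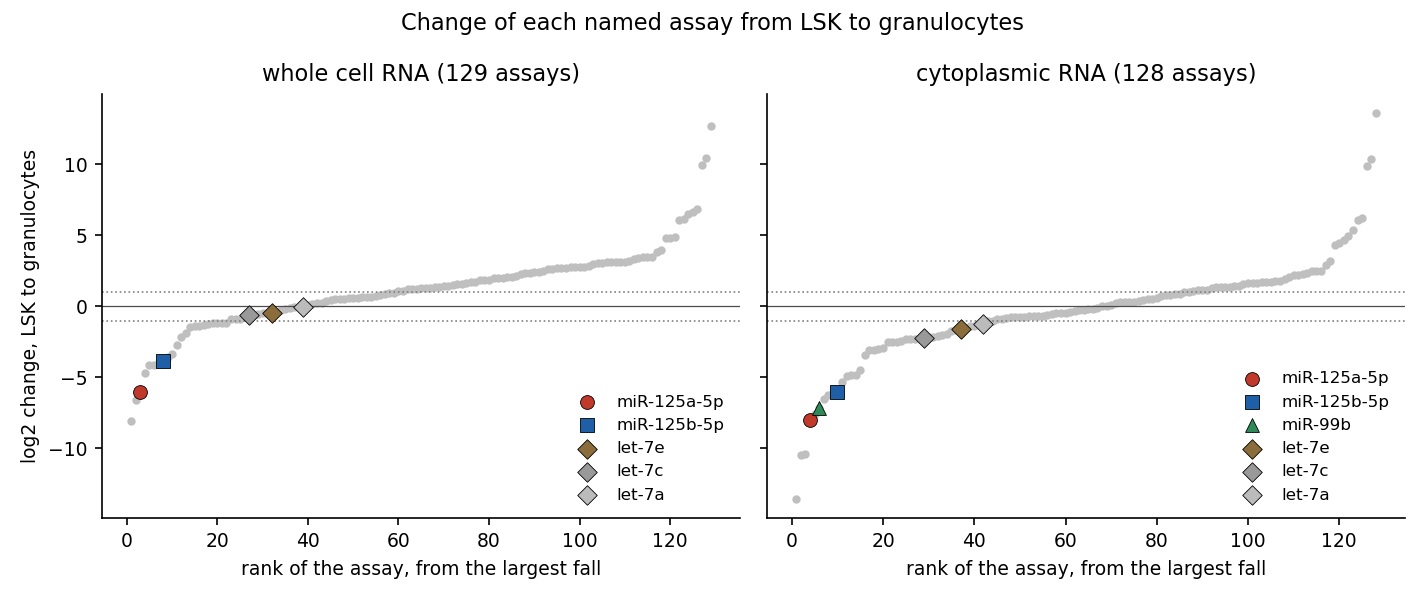
Log2 change from LSK cells to granulocytes of each named assay with a CT under 30 in at least 1 stage, ordered from the largest fall, in whole cell RNA (left, scaled) and cytoplasmic RNA (right, not scaled); dotted lines mark 2-fold. miR-125a-5p and miR-125b-5p lie at ranks 3 and 8 on the left and 4 and 10 on the right, miR-99b is at rank 6 on the right and not counted on the left, and the let-7 miRNAs of the clusters lie between -0.63 and -0.03 on the left.

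The changes of the members differed after the promyelocyte stage, where miR-125a-5p and miR-99b were read at late CTs. From promyelocytes to granulocytes miR-125b-5p fell further, by 1.57 in whole cell and 2.61 in cytoplasmic RNA. On these scales it was the only member past 2-fold, where 22.5% of the whole cell and 14.8% of the cytoplasmic assays were at least 2-fold lower. miR-125a-5p changed by 0.24 in whole cell and -0.29 in cytoplasmic RNA, and miR-99b by 0.74 and -0.35, all under 2-fold and at CTs above 34. Scaled to the mean CT of the named assays, cytoplasmic miR-125a-5p and miR-99b changed by -1.40 and -1.45 and were also past 2-fold. In whole cell RNA the direction of both turned with the setting, to -0.26 for miR-125a-5p with that scaling and to -0.43 for miR-99b with CTs above 35 set to 35, and unscaled miR-99b rose by 1.17, past 2-fold. With both left unscaled, the whole cell change minus the cytoplasmic one for this step was 0.96 for miR-125a-5p, 1.48 for miR-125b-5p and 1.52 for miR-99b, each above the range of -1.27 to 0.94 of the 66 well-read assays.

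Differences between the changes of a pair of miRNAs do not depend on scaling, which cancels. From LSK cells to promyelocytes miR-125a-5p fell further than miR-125b-5p, with a difference of -3.99 cycles in whole cell and -4.27 in cytoplasmic RNA. From promyelocytes to granulocytes the order turned, and miR-125a-5p changed by 1.80 and 2.32 cycles more in the upward direction than miR-125b-5p. In promyelocytes miR-125a-5p already had CTs of 34.79 in whole cell and 34.94 in cytoplasmic RNA, against 30.91 and 30.40 for miR-125b-5p. A further fall of miR-125a-5p could hardly be read there, and whether this made the turn was not tested. Over the whole course the gap was -2.19 cycles in whole cell and -1.95 in cytoplasmic RNA. The 2 miRNAs share a seed and come from different clusters. Against miR-99b, which shares its cluster and not its seed, miR-125a-5p differed by -1.01 and -0.89 cycles from LSK cells to promyelocytes, and by -1.52 and -0.83 to granulocytes. These gaps rest on miR-99b CTs above 35. With CTs above 35 set to 35, miR-125a-5p and miR-99b changed by -6.28 and -3.78 to promyelocytes in whole cell RNA, and by -7.71 and -5.01 in cytoplasmic RNA. To granulocytes they changed by -6.04 and -4.21, and by -7.77 and -5.01. In cytoplasmic RNA miR-125b-5p, at -6.05 to granulocytes, was then nearer to miR-125a-5p than miR-99b was. Single assays under 30 in all 8 samples differed between the RNA kinds with an SD of 0.646 cycles from LSK cells to promyelocytes, a spread across assays and not across replicates. It covers well-read assays, and the change of 1 assay in different RNA kinds. It is thus no measure of error for the gaps above, which rest on later CTs.

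let-7e, whose hairpin lies between those of miR-99b and miR-125a, did not share their drop in whole cell RNA and fell less than they did in cytoplasmic RNA. Its whole cell CT was 25.91 in LSK cells, 25.65 in promyelocytes, 25.72 in myelocytes and 25.69 in granulocytes, which spans 0.25 cycles. In cytoplasmic RNA it was 24.33, 26.54, 25.49 and 25.96, lowest in LSK cells, with a range of 2.21 cycles. Its scaled whole cell change from LSK cells was 0.01 to promyelocytes and -0.46 to granulocytes, and its cytoplasmic change -2.21 and -1.63. From LSK cells to promyelocytes the change of miR-125a-5p minus that of let-7e was -6.29 cycles in whole cell and -5.50 in cytoplasmic RNA, and that of miR-99b minus let-7e was -5.28 and -4.61. These gaps are from the same samples and do not depend on scaling. Those of miR-99b rest on its promyelocyte CTs of 36.49 and 36.81. With CTs above 35 set to 35, miR-99b changed by -3.78 in whole cell RNA, scaled, and by -5.01 in cytoplasmic RNA, so that its gaps to let-7e were smaller.

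**Figure D3:**
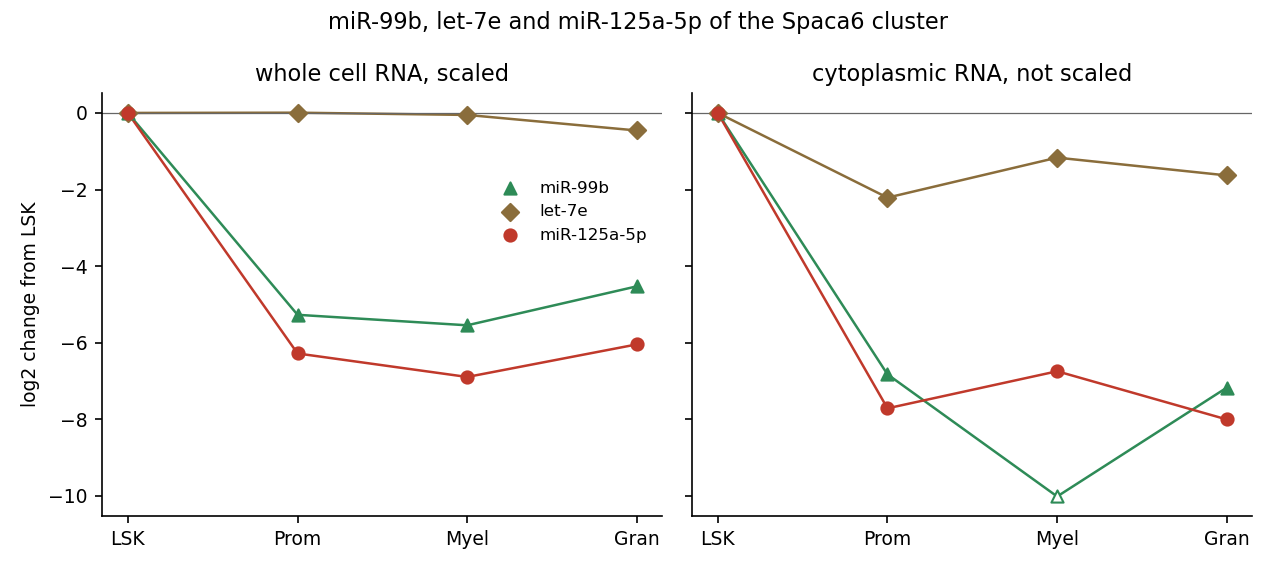
Log2 change from LSK cells of miR-99b (triangles), let-7e (diamonds) and miR-125a-5p (circles), whose genes are neighbours within Spaca6, at each later stage in whole cell RNA (left, scaled) and cytoplasmic RNA (right, not scaled), 1 sample per point. let-7e stays between 0.01 and -0.46 on the left, where miR-99b is at -4.53 or below and miR-125a-5p at -6.04 or below; the open triangle is an undetermined well taken at a CT of 40.

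let-7c and let-7a, the let-7 miRNAs of the miR-125b clusters, also did not fall as far as miR-125b-5p from LSK cells. The whole cell CT of let-7c was 28.65, 27.88, 28.42 and 28.61 from LSK cells to granulocytes, and that of let-7a was 30.24, 28.78, 28.80 and 29.59. The change of miR-125b-5p minus that of let-7c was -2.82 cycles to promyelocytes and -3.22 to granulocytes in whole cell RNA, and -1.48 and -3.83 in cytoplasmic RNA. Against let-7a the differences were -3.50 and -3.83 in whole cell and -1.60 and -4.81 in cytoplasmic RNA. From promyelocytes to granulocytes they were small in whole cell RNA, -0.41 against let-7c and -0.33 against let-7a. There let-7c and let-7a changed by -1.16 and -1.23 scaled, and by -0.73 and -0.81 unscaled. In cytoplasmic RNA the differences over this step were -2.35 and -3.21. Both let-7 strands also come from genes outside these clusters, so their assays do not read the cluster copy alone. Of the 3 cluster partners, none was past 2-fold from LSK cells to granulocytes in whole cell RNA, where 17.1% of all assays counted were lower and 54.3% higher. Their median change was -0.46, against 1.30 for all 129. This call depended on the scaling: with the mean CT of the named assays as scale let-7e changed by -1.29 and let-7c by -1.47, and with their median CT let-7c changed by -1.17. In cytoplasmic RNA all 3 were at least 2-fold lower, as were 34.4% of all assays counted, with a median of -1.63 against -0.23 for all 128 assays. In nuclear RNA the unscaled changes were -0.09 for let-7e, -0.12 for let-7c and 1.42 for let-7a, and scaled to the mean CT of the named assays they were -1.35, -1.39 and 0.16.

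The passenger strands, the starred partners cut from the same hairpins, were near the limit of detection. miR-125b* had a whole cell CT of 34.29 in LSK cells, 35.99 in promyelocytes and 37.92 in myelocytes, and was undetermined in granulocytes. Its cytoplasmic CT was 33.63, 38.39 and 37.03 at these stages and again undetermined in granulocytes. miR-99b* had a whole cell CT of 32.21 in LSK cells and was undetermined at the 3 later stages, and its cytoplasmic CT was 34.57 in LSK cells and 37.84 in promyelocytes, then undetermined. In whole cell and cytoplasmic RNA both passenger strands were thus lowest in CT in LSK cells, like their guide strands. In nuclear RNA miR-125b* was read at 36.33 in LSK cells and 36.83 in promyelocytes, while miR-99b* was undetermined in LSK cells and read at 39.19 in promyelocytes and 38.24 in myelocytes.

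The third assay with the miR-125 seed, miR-351, had no drop after the LSK stage in whole cell RNA. Its CT was 33.60 in LSK cells, 33.23 in promyelocytes, 31.76 in myelocytes and 33.49 in granulocytes, so that the myelocyte sample was the highest in level. In cytoplasmic RNA it was read at 31.92, 34.48, 32.60 and 33.91, lowest in CT in LSK cells. All of these lie above a CT of 30, and the course of miR-351 differed between the RNA kinds.

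Where an undetermined well stands against a readable one, the fold is given as a bound, reading the well at a CT of 35. Cytoplasmic miR-99b was at least 32.3-fold lower in myelocytes than in LSK cells on this basis. Nuclear miR-125a-5p was at least 7.37-fold lower in promyelocytes and in granulocytes than in LSK cells, and nuclear miR-99b at least 1.94-fold lower at each later stage. Whole cell miR-99b* was at least 6.90-fold lower at each later stage. These bounds are not scaled.

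Other miRNAs known from stem and progenitor cells were set beside the members. Of the list of 12, 11 were named and under 30, and 7 of these were at least 2-fold lower in granulocytes than in LSK cells in whole cell RNA, 1 was higher and 3 were under 2-fold, where 17.1% of all assays counted were lower and 54.3% higher. The median change of the 11 was -2.72, against 1.30 for the 129 assays. The largest changes were those of miR-196b, which is transcribed from a Hox gene cluster, at -8.06, of miR-155, known from immune and leukemic cells, at -4.72, and of miR-126-5p, from the endothelial gene Egfl7, at -4.14. The smallest was -0.49 for miR-181a, known from lymphoid cells, and the rise past 2-fold was 2.24 for miR-10b, another miRNA of the Hox clusters. The change of -6.04 of miR-125a-5p thus lay between those of miR-196b and miR-155, and that of -3.86 of miR-125b-5p lay between those of miR-130a and miR-126-3p. In cytoplasmic RNA 8 of the 11 were at least 2-fold lower, against 34.4% of all assays counted, and none higher, with a median of -3.45.

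The list of miRNAs known from mature myeloid cells ran the other way. Both lists were chosen with earlier results of these data known, so their counts are a description and do not support a direction. All 8 that were named and under 30, of 9 listed, were at least 2-fold higher in granulocytes than in LSK cells in whole cell RNA, as were 54.3% of all assays counted, with a median change of 2.95. miR-223, the best known miRNA of granulocytes, rose by 6.87, miR-139-5p by 6.50 and miR-142-3p, a miRNA of all blood cells, by 3.98. miR-24 had the smallest change of the list, 1.30. In cytoplasmic RNA 7 of the 8 were higher, against 33.6% of all assays counted, with a median of 1.42.

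The assays most like each member were found by the root mean square difference of their CTs, each CT centred over the 4 stages within whole cell and within cytoplasmic RNA, over 8 samples and among 135 named assays. The nearest to miR-125a-5p was its cluster neighbour miR-99b, at 1.27 cycles, followed by miR-126-3p at 1.32, miR-203 at 1.42, miR-126-5p at 1.43 and miR-224 at 1.62. miR-125a-5p was in turn the nearest to miR-99b, followed by miR-126-3p at 1.33, miR-126-5p at 1.36, miR-203 at 1.48 and then miR-224. let-7e was only the 27th for each of them, at 2.64 and 2.73 cycles.

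miR-125b-5p had closer matches than the other members. miR-155 was nearest at 0.471 cycles, then miR-130a at 0.501, miR-203 at 0.657, miR-126-3p at 0.667 and miR-126-5p at 0.691. Its family member miR-125a-5p was the 30th at 1.64 cycles and miR-99b the 44th at 1.82. Counted from the other side, miR-125b-5p was the 6th nearest to miR-125a-5p and the 7th nearest to miR-99b at these distances. By this distance the miR-125 pair, at 1.64 cycles, was less alike than miR-125a-5p and miR-99b, at 1.27. These are distances over 1 sample per stage, and undetermined wells entered at 40.

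The nuclear:cytoplasmic ratio was computed as 2 to the power of the cytoplasmic minus the nuclear CT, divided by 3. In LSK cells it was 0.0112 for miR-125a-5p, 0.0210 for miR-125b-5p and 0.0200 for miR-99b. Those of miR-125b-5p and miR-99b were close to the LSK median of 0.0213 over 45 named assays with a nuclear CT under 30, and that of miR-125a-5p was 0.527 of it. In promyelocytes miR-125b-5p was the only member read in both fractions, with a ratio of 0.0138, or 0.259 of a stage median of 0.0534.

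In myelocytes and granulocytes the ratios that could be computed were above the stage median. In myelocytes miR-125a-5p had a ratio of 0.123 and miR-125b-5p of 0.0926, against a median of 0.0266. In granulocytes miR-125b-5p had a ratio of 0.226 against 0.0568. From promyelocytes through myelocytes to granulocytes the nuclear CT of miR-125b-5p was 34.99, 33.17 and 33.57, while its cytoplasmic CT rose from 30.40 to 31.32 and 33.01. Its 4 ratios thus ranged from 0.0138 to 0.226, and the order of the stages was promyelocytes, LSK cells, myelocytes and granulocytes from low to high.

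All of the members' nuclear CTs were above 30, so the ratios were also set beside those of the named assays with a nuclear CT from 30 to 40. The middle 50% of these ran from 0.0117 to 0.0522 in myelocytes and from 0.0362 to 0.114 in granulocytes. The myelocyte ratios of miR-125a-5p and miR-125b-5p and the granulocyte ratio of miR-125b-5p lay above them. The promyelocyte ratio of miR-125b-5p lay below the range of 0.0242 to 0.121 at that stage, and in LSK cells the 3 members lay within 0.0106 to 0.0514. The labels give 100 ng of RNA for each fraction, whereas the study describes its fraction data as resting on volumes matched by cell number. The scale of the ratio depends on which holds, and this was not tested.

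**Figure D4:**
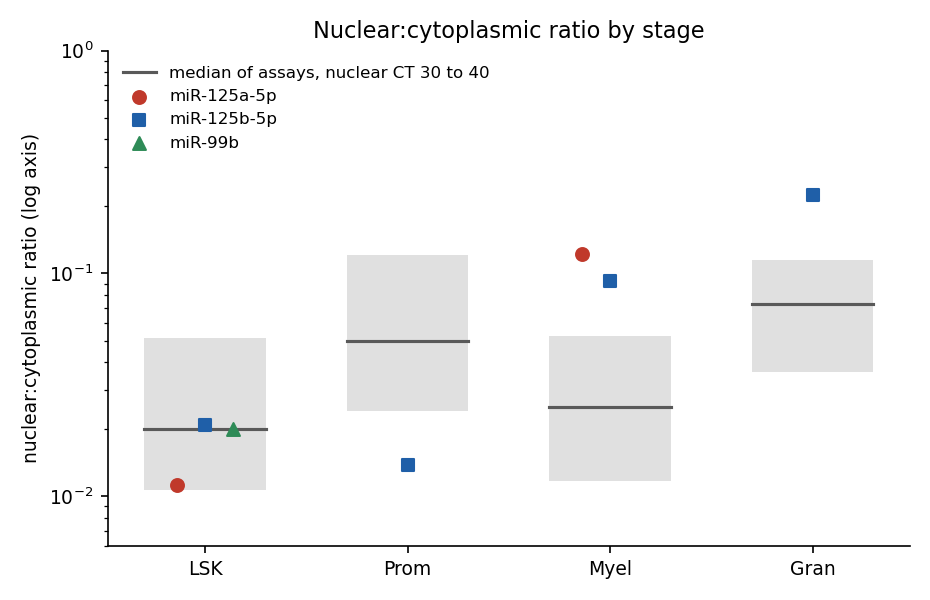
Nuclear:cytoplasmic ratio, on a log axis, of miR-125a-5p (circles), miR-125b-5p (squares) and miR-99b (triangle) at each stage where both fractions were read, 1 sample per point; grey bars span the quartiles and lines mark the median of the named assays with a nuclear CT from 30 to 40. miR-125b-5p rises from 0.0138 in promyelocytes, below the bar, to 0.226 in granulocytes, above it.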

How the data were processed

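The authors isolated RNA with Trizol after fractionation with the PARIS kit, reverse transcribed it with Megaplex primers, ran TaqMan rodent array cards A and B on an ABI 7900HT, and deposited CT values without normalization. The CT scale is a log2 scale at full efficiency. Assays carry numbers and no names. Names came from a unique match of all cytoplasmic and nuclear CTs to those printed in the study's additional files, within 0.0005 cycles (247 assays, miR-125b-5p and miR-99b among them), or of whole cell differences to printed values multiplied by 0.585, the log2 of 1.5, plus a constant per pair of stages, within 0.002 cycles (23 more, miR-125a-5p among them). Printed values served for naming, for the choice of the assays used in scaling and for the divisor of the ratio, and 5 printed entries matched no single assay.

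All 12 samples were used, 1 per stage and RNA kind, grouped by the labels. Whole cell CT differences were scaled by the average of the final 3 assays in the table, which gives the constants of the study's printed values within 0.001 cycles. Cytoplasmic and nuclear CTs were not scaled. The divisor of 3 in the nuclear:cytoplasmic ratio is the one of the printed ratios. Counts cover named assays with a CT under 30 in at least 1 stage, and 2-fold was the limit. The members, lists and alternatives were chosen with earlier results of these data known. Named in the text were all members, cluster partners and passenger strands, of the other lists the 3 largest and the smallest change from LSK cells to granulocytes, and the 5 assays most like each member. miR-223, miR-126-3p, miR-130a and miR-196b served as stage markers. miR-10b, miR-29a and miR-221, and miR-351, taken for its seed, were chosen after their values were seen. Alternatives changed the scaling, the CT and fold limits, the value of undetermined wells, the fold per cycle and the divisor. The accuracy of the names that came from whole cell differences, miR-125a-5p among them, was not tested. Python 3.11.15, numpy 2.4.6, pandas 2.3.3 and matplotlib 3.10.9 were used. mRNA arrays and human samples were not analysed here.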

Additional observations from a re-analysis of the deposited data

How the results depend on the processing

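The falls of miR-125a-5p, miR-125b-5p and miR-99b from LSK cells to promyelocytes and to granulocytes kept their direction and stayed past 2-fold under all 66 alternative values of these 12 results. Many of these values could not differ from the main one. Another fold limit leaves a change as it is, and a floor at a CT of 35 moves only later CTs. The whole cell values put in place of cytoplasmic ones were already counted. The smallest fall, of whole cell miR-125b-5p to promyelocytes, ranged from -2.62 to -2.04. The changes from promyelocytes to granulocytes did not hold as firmly. With the mean CT of the named assays as scale, miR-125a-5p changed by -0.26 in whole cell and -1.40 in cytoplasmic RNA, and cytoplasmic miR-99b by -1.45. With the median CT, whole cell miR-125a-5p changed by -0.51 and miR-99b by -0.0026. Without scaling, whole cell miR-99b changed by 1.17, and with CTs above 35 set to 35 by -0.43 in whole cell and 0 in cytoplasmic RNA. Whole cell in place of cytoplasmic RNA gave 0.24 for miR-125a-5p and 0.74 for miR-99b. With a fold limit of 1.5 the 0.74 of miR-99b passed, and with one of 3 the -1.57 of miR-125b-5p did not.

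The median of the cluster partners from LSK cells to granulocytes was 0.22 without scaling and -1.29 with the mean CT as scale. The count of assays at least 2-fold lower in promyelocytes was 12 with a CT limit of 28, 55 with 35, and 15 with a fold limit of 3. That for granulocytes was 14, 42 and 13 under these, and 13 without scaling and 35 with the mean CT. Divided by the stage median in place of 3, the log2 nuclear:cytoplasmic ratio was above 0, which then stands for the median assay of the stage and not for equal nuclear and cytoplasmic levels, for miR-125a-5p (2.20) and miR-125b-5p (1.80) in myelocytes and miR-125b-5p in granulocytes (1.99), and was -0.93, -0.0253 and -0.0889 for miR-125a-5p, miR-125b-5p and miR-99b in LSK cells. Without a divisor it was -0.56 for miR-125b-5p in granulocytes. No paired analysis was possible because each stage and RNA kind has 1 sample and the digits of the sample titles number the stages. The causes were not tested. Single wells and CTs above 30 limit the later-stage values of the members.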
